A study of Mus musculus with 24 samples.

Results

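The 8 genes of intestinal lipoprotein assembly described here are the apolipoprotein genes *Apoa4*, *Apoa1*, *Apoc3*, *Apoc2*, *Apob* and *Apoe*, the editing enzyme gene *Apobec1* and the lipid transfer gene *Mttp*. They are 8 of the 55536 genes in the count table, taken by symbol, and they were selected on their levels in the 4 diet and metformin groups, which were already known. The comparisons between those groups are therefore descriptions for these genes, given as a log2 fold change (logFC) with its standard error (SE) and without a p-value.

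RNA from the distal small intestine was sequenced as 1 library per mouse from 24 C57BL/6N mice, an inbred strain, in 4 groups of 6 with 3 animals of each sex. All mice started at 4 to 5 weeks of age on a control diet (CD) with 10 kcal% fat or a high-fat diet (HFD) with 60 kcal%. After 20 weeks, metformin, an oral antihyperglycemic drug, was added to the drinking water of the CDmetf and HFDmetf mice at 50 mg/kg/day for 10 weeks, and the CD and HFD mice went without it. Libraries are named by group, labelled sex (F or M) and replicate number, and the piece taken from each animal is whole tissue, so that a lower level can mean fewer cells of a type or less RNA per cell, and these cannot be told apart.

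Enterocytes package absorbed fat into chylomicrons. Apolipoprotein B is the scaffold, 1 molecule per particle, and microsomal triglyceride transfer protein, the product of *Mttp*, loads lipid onto it in the endoplasmic reticulum. In the intestine the *Apob* transcript is edited by the cytidine deaminase APOBEC1, which turns a glutamine codon into a stop codon and gives the short form apoB-48. Apolipoproteins A-I, A-IV and C-III are added to the surface, where A-IV is known for its induction during fat absorption and C-III for restraining lipoprotein lipase. Apolipoprotein C-II activates that lipase, and apolipoprotein E, a ligand of lipoprotein receptors, is made mostly by liver and macrophages.

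*Apoa1* (chr9:46228580-46230466, plus strand), *Apoc3* (chr9:46232933-46235636, minus strand) and *Apoa4* (chr9:46240696-46243459, plus strand) form a cluster on GRCm38. The start of *Apoc3* lies 7056 bp from that of *Apoa1* and 5060 bp from that of *Apoa4*. *Apoe* (chr7:19696109-19699188) and *Apoc2* (chr7:19671579-19677941) are neighbours on the minus strand of chromosome 7. *Apob* (chr12:7977648-8016835, plus strand), *Apobec1* (chr6:122577792-122602444, minus strand) and *Mttp* (chr3:138089854-138144968, minus strand) stand alone.

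The edited site of *Apob* is shown because it is the substrate of *Apobec1* and because counts per gene do not separate edited from unedited transcripts. It was read from the GENCODE M21 transcript and lies at chr12:8008048-8008077 on the plus strand, in exon 26 of 29. The capitals mark the glutamine codon, number 2179 of 4505 coding codons, whose first base is edited, and, after 2 bases in lower case, the mooring sequence on which the editing complex assembles.
Apob editing site: gcgataCAAttTGATCAGTATAttaaagat

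The stretches just before the annotated starts of *Apoa1*, *Apoa4* and *Apob* are shown because the levels of these genes moved together across libraries, as described later. They come from the RefSeq promoter table (GRCm38.p6), which held 9 entries for 7 of the 8 genes and none for *Apoc3*, and each ends before the first annotated exon. The RefSeq entries run from 250 bases before to shortly after the start, and were searched on both strands for 6 motifs, whose matches are in capitals. The stretches lie at chr9:46228380-46228579, chr9:46240594-46240695 and chr12:7977427-7977647, all on the plus strand.
Apoa1 upstream: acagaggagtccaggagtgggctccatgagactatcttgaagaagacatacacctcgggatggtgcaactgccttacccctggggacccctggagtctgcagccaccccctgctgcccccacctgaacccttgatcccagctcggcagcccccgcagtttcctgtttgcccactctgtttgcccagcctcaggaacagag
Apoa4 upstream: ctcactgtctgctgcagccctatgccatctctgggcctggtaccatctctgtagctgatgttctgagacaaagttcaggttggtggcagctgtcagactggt
Apob upstream: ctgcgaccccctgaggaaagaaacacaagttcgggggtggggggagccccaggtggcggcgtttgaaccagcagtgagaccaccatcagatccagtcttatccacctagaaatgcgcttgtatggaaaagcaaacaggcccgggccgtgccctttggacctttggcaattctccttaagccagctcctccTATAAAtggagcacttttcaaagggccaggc
Only *Apob* held a match among these 3, the TATA box TATAAA at 60 to 55 bases before the RefSeq start, a motif found in 12.4% of 32851 mouse promoters of the same length. In the windows of the other genes, *Apobec1* and 1 of the 3 *Apoe* entries held TATAAA, *Apoc2* and another *Apoe* entry the HNF1 half-site GTTAAT (6.43% of promoters) and *Apoc2* the nuclear receptor half-site AGGTCA (14% of promoters, counting those inside CAAAGGTCA). The HNF4 sites CAAAGTCCA (0.384%) and CAAAGGTCA (0.426%) and the cAMP response element TGACGTCA (1.55%) were in none of the 9 windows, which says only that these exact letters are not there.

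The libraries held 1829690 to 40606442 reads assigned to genes (median 3467308). A share of 85.4% of the CD M3 reads fell on its 10 most counted genes, while this share was 9.22% to 36.6% elsewhere. Sex-linked reads went against the label in a pair of libraries: HFD M2 (3355 on *Xist*, 0 Y-linked) and HFD F2 (1 on *Xist*, 423 Y-linked). All were kept, and values without them are given for some of the results. Levels are CPM, reads scaled to a common library size by TMM, and 3 reads, taken as the smallest readable level, were worth at most 1.71 CPM in any library (HFDmetf F2). This floor covers counting error alone.

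The labelled tissue was checked with ileal genes. The bile acid binding protein gene *Fabp6* and the bile acid transporter genes *Slc10a2*, *Slc51a* and *Slc51b* had reads in all 24 libraries, but *Fabp6* ranged from 0.817 CPM in HFD M3 to 2662 CPM in CDmetf F2. *Gata4*, a transcription factor gene of duodenum and jejunum that is off in terminal ileum, ranged from 0.301 CPM in CDmetf M2 to 114 CPM in HFD M3, and lactase (*Lct*) from 0.796 to 3122 CPM. *Gata4* left a gap between 6.06 and 20.1 CPM, with 8 libraries below it and 16 above. Below the gap lay 2 CD, 4 CDmetf, 0 HFD and 2 HFDmetf libraries. The pieces thus differed widely in markers of position along the intestine, and unevenly between the groups.

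The 8 genes together took between 0.117% (CD M3) and 3.76% of all reads on genes, with a median of 1.66%. Ordered by CPM per kilobase of exon, *Apoa1* came first (median 3134, range 706.5 to 8837), followed by *Apob* (672, 125 to 1438). *Apoa1* exceeded *Apob*, and *Apob* exceeded *Mttp* (195, 36.7 to 412), in 24 of 24 libraries. The next places were not distinct: *Mttp* exceeded *Apoa4* (114, 16.4 to 3599) in 12 of 24 libraries, *Apoa4* exceeded *Apoe* (97, 49.4 to 200) in 13, and *Apoe* exceeded *Apoc3* (46.5, 5.93 to 211) in 16. *Apoc3* exceeded *Apobec1* (11.4, 5.42 to 19.4) in 19 of 24 libraries.

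*Apoc2* was barely counted. It had 59 reads over all libraries, 0 in 13 of them and a highest value of 29 in HFD F1, and did not pass the filter on low counts, so 7 of the 8 genes were tested. Of its exon bases, 79.5% are shared on the same strand with the protein-coding locus *Gm44805*, which had 0 reads in every library and the table sets reads that fit more than 1 gene apart, so the level of *Apoc2* is uncertain. Its medians were 0 CPM in the CD and CDmetf groups, 0.555 in the HFD group and 0.174 in the HFDmetf group, all under the floor of 3 reads in the shallowest library.

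*Apob* encodes the particle's scaffold. Its level was 2912 to 11005 CPM in the CD group (median 8368), 5170 to 14967 in the CDmetf group (median 8281), 7926 to 20038 in the HFD group (median 12157) and 1734 to 13270.5 in the HFDmetf group (median 8149). The lowest CD value was that of CD M3, and the groups overlapped, with 3 of 6 HFD libraries above every CD library and 3 of 6 HFDmetf libraries below every HFD library. The logFC was 0.77 (SE = 0.40) in HFD vs. CD, −0.32 (SE = 0.41) in HFDmetf vs. CDmetf, −0.84 (SE = 0.41) in HFDmetf vs. HFD and 0.25 (SE = 0.40) in CDmetf vs. CD. Without CD M3 the logFC was 0.55 in HFD vs. CD and 0.03 in CDmetf vs. CD.

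*Mttp*, whose product lipidates apoB, spread further within groups. It stood at 430 to 1630 CPM in the CD group (median 944), 254 to 2179 in the CDmetf group (median 551), 740 to 2558 in the HFD group (median 1774) and 228 to 1653 in the HFDmetf group (median 1223). The CDmetf values split into 2 high libraries, F1 and F3, and 4 low ones, and those 4 are the CDmetf libraries below the *Gata4* gap. The logFC was 0.81 (SE = 0.46) in HFD vs. CD, 0.38 (SE = 0.47) in HFDmetf vs. CDmetf, −0.69 (SE = 0.46) in HFDmetf vs. HFD and −0.26 (SE = 0.46) in CDmetf vs. CD. Without HFDmetf M2 the HFDmetf vs. CDmetf value was −0.04 and the HFDmetf vs. HFD value −1.22. On the opposite strand, *Gm43691* and *Trmt10a* overlap 9.49% of its exon bases.

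*Apobec1*, the apoB mRNA editing enzyme gene, varied least. Its level was 14.6 to 45 CPM in the CD group (median 30.6), 25.6 to 33.6 in the CDmetf group (median 30.6), 21.4 to 52.3 in the HFD group (median 33.7) and 17.6 to 42.1 in the HFDmetf group (median 30.3). These values rest on 31 to 1490 reads. The 4 groups overlapped over most of their ranges, and the logFC lay between −0.06 (SE = 0.22, HFDmetf vs. HFD) and 0.15 (SE = 0.21, HFD vs. CD). The lowest CD value was that of CD M3, without which the logFC was −0.03 in HFD vs. CD and −0.18 in CDmetf vs. CD.

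*Apoa4* varied most, 219-fold between the lowest library (CDmetf M3, 29.8 CPM) and the highest (HFD M3, 6531 CPM). It stood at 36.5 to 844 CPM in the CD group (median 97.7), 29.8 to 3216 in the CDmetf group (median 140), 89.1 to 6531 in the HFD group (median 2395) and 101 to 1711 in the HFDmetf group (median 535). In the HFD group, F1, F2, M1 and M3 had 1600 to 6531 CPM, above every CD library, while F3 (89.1 CPM) and M2 (95.5 CPM) lay at the level of the CD group. HFD F3 and M2 also had the lowest *Gata4* of their group (30.7 and 20.1 CPM, against 71.2 to 113.6 in the others). Their *Fabp6* was the highest (1556 and 1762 CPM, against 0.817 to 1291). In the CDmetf group F1 alone was in the range of HFD F1, F2, M1 and M3, with the next library, F3, at 230 CPM. *Gata4* was at 111 CPM in CDmetf F1 and 74.45 CPM in CDmetf F3. The part of position in these *Apoa4* values was not tested.

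The fitted logFC of *Apoa4* was 4.06 (SE = 1.07) in HFD vs. CD, 1.16 (SE = 1.07) in HFDmetf vs. CDmetf, −1.58 (SE = 0.96) in HFDmetf vs. HFD and 1.32 (SE = 1.03) in CDmetf vs. CD. The difference of the 2 diet contrasts was −2.90 (SE = 1.43). When single libraries were left out, the HFD vs. CD value ranged from 3.03 (without HFD M3) to 4.41 (without CD M1). Without CDmetf F1 the CDmetf vs. CD value was 0.0035 and the HFDmetf vs. CDmetf value 2.13. Without HFD M3 the HFDmetf vs. HFD value was −0.33. Of the *Apoa4* exon bases 69.8% are overlapped on the opposite strand, by *Gm47528* and *Gm10680*, and the strand setting of the counts is not given. Without strand, reads in the overlap fit more than 1 gene and would be set apart, so the *Apoa4* level could be underestimated. *Gm47528* had 0 to 329 reads and *Gm10680* at most 1, against 109 to 135671 on *Apoa4*.

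*Apoa1*, the main protein of high-density lipoproteins, stood at 2224 to 8121 CPM in the CD group (median 3571), 2468 to 7118 in the CDmetf group (median 3710), 2120 to 10922 in the HFD group (median 8326) and 873 to 7412 in the HFDmetf group (median 3502). The same HFD libraries, F3 and M2, were low here, at 2120 and 2762 CPM against 8110 to 10922 in the other 4. The logFC was 0.73 (SE = 0.46) in HFD vs. CD, −0.12 (SE = 0.47) in HFDmetf vs. CDmetf, −0.87 (SE = 0.47) in HFDmetf vs. HFD and −0.03 (SE = 0.46) in CDmetf vs. CD. Within libraries, the CPM of *Apoa4* was 1.53% to 10.4% of that of *Apoa1* in the CD group, 1.21% to 45.2% in the CDmetf group, 3.46% to 72.8% in the HFD group and 11% to 25.4% in the HFDmetf group. The medians of this ratio were 3.31%, 3.71%, 28.5% and 15.6%.

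*Apoc3* lies between these genes on the other strand. Its level was 12 to 205 CPM in the CD group (median 33.9), 6.01 to 148 in the CDmetf group (median 12.9), 12.8 to 214 in the HFD group (median 114) and 6.26 to 102 in the HFDmetf group (median 59.1). The logFC was 0.99 (SE = 0.74) in HFD vs. CD, 0.73 (SE = 0.79) in HFDmetf vs. CDmetf, −0.84 (SE = 0.74) in HFDmetf vs. HFD and −0.57 (SE = 0.78) in CDmetf vs. CD. Leaving out 1 library moved the HFD vs. CD value to 0.53 (without HFD M3) or 1.69 (without CD M1), and the HFDmetf vs. HFD value to −1.47 (without HFDmetf M2) or −0.30 (without HFD M3). The 6 libraries of each group spanned at least 16.3-fold, more than the medians differed between groups.

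*Apoe*, the receptor ligand, stood at 106 to 233 CPM in the CD group (median 187), 128 to 428 in the CDmetf group (median 212), 138 to 282 in the HFD group (median 180) and 138 to 374 in the HFDmetf group (median 267). Of the HFDmetf libraries, 5 of 6 lay above the HFD median and 2 above every HFD library. The logFC was 0.07 (SE = 0.22) in HFD vs. CD, 0.17 (SE = 0.22) in HFDmetf vs. CDmetf, 0.51 (SE = 0.22) in HFDmetf vs. HFD and 0.41 (SE = 0.22) in CDmetf vs. CD. Without HFD M2 and HFD F2 the HFDmetf vs. HFD value was 0.39. Omitting CD M3 gave 0.23 in HFD vs. CD and 0.54 in CDmetf vs. CD.

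**Figure D1:**
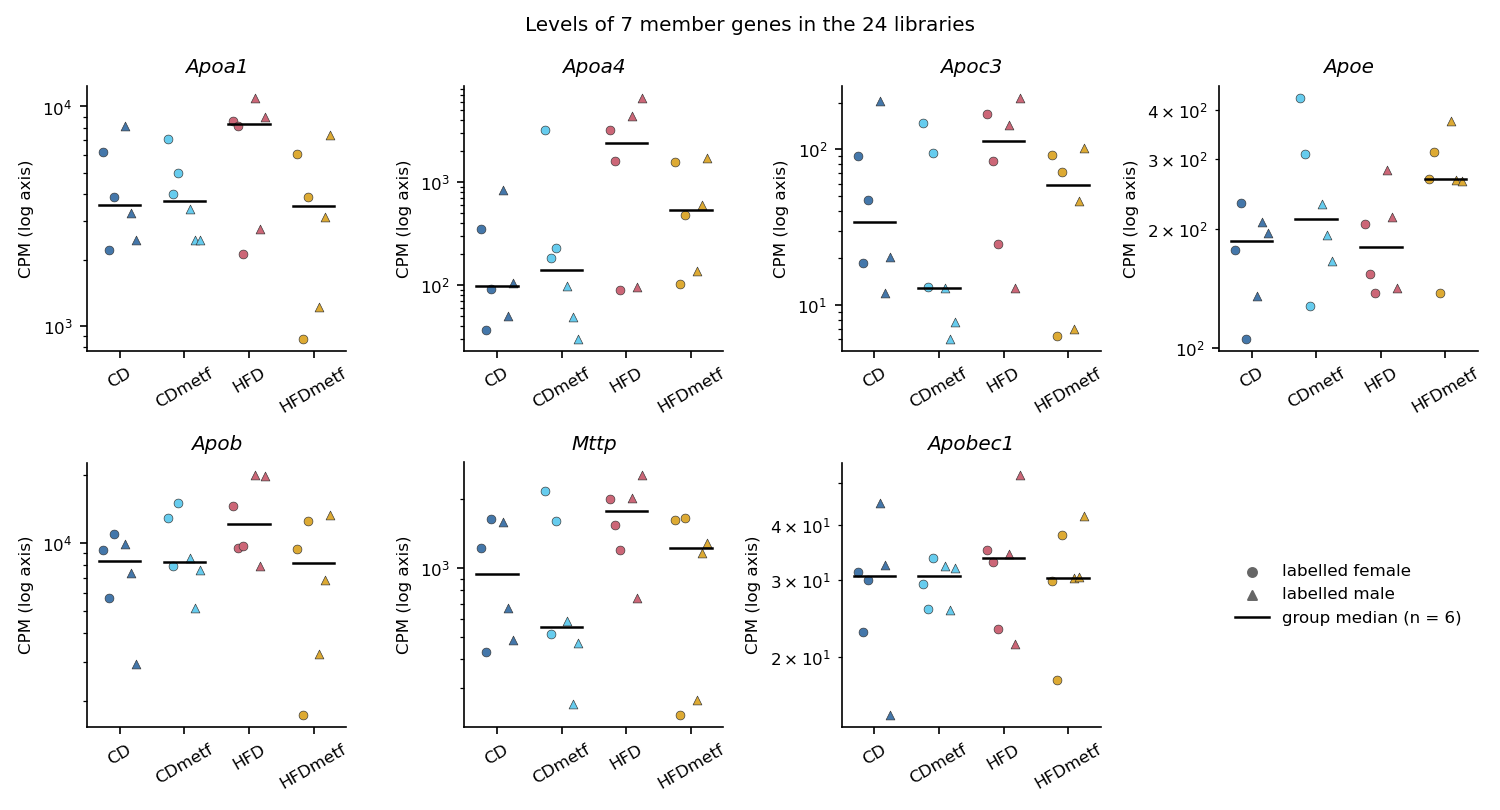
Level of each of the 7 counted genes in CPM (log axis) by group, with 1 point per library, circles for libraries labelled female, triangles for those labelled male, and a bar at the median of the 6 libraries. *Apoa4* runs from 29.8 to 6531 CPM with 4 HFD libraries above all CD libraries, while *Apobec1* stays between 14.6 and 52.3 CPM.

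None of the 7 tested genes had a false discovery rate (FDR) under 0.05 in any of the 4 contrasts by edgeR's quasi-likelihood test, nor did any of the 14076 genes tested (0% called in each). At an unadjusted p under 0.05, 1 of the 7 was counted in HFD vs. CD (*Apoa4*, beside 652 genes or 4.63% of all), 0 in HFDmetf vs. CDmetf (7.87% of all), 1 in HFDmetf vs. HFD (*Apoe*, beside 6.61%) and 0 in CDmetf vs. CD (5.14%). DESeq2's Wald test called 1 of the 7, *Apoa4* in HFD vs. CD, among 13 genes (0.0924%), and 0 of the 7 in the other contrasts (0.0213% of all genes in HFDmetf vs. CDmetf, 0% in HFDmetf vs. HFD and 0.0284% in CDmetf vs. CD). By limma-voom 0 of 14076 genes were called in the 4 contrasts. The groups compared overlapped for all 7 genes in each contrast, whereas they did not for 0.0853% of all genes in HFD vs. CD, 0.142% in HFDmetf vs. CDmetf, 0.0355% in HFDmetf vs. HFD and 0.149% in CDmetf vs. CD. The rule that chose the genes used these contrasts, so nothing is read from the counts. For the diet by metformin interaction the 7 genes again gave 0 calls (0% of 14076 genes) and 0 at an unadjusted p under 0.05 (6.03% of all), with a logFC of −1.09 (SE = 0.57) for *Apob*, −0.84 (SE = 0.66) for *Apoa1* and 0.11 (SE = 0.31) for *Apoe*.

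Position markers were put through the same contrasts. The *Gata4* logFC was 0.90 (SE = 0.94) in HFD vs. CD, 1.12 (SE = 1.04) in HFDmetf vs. CDmetf, −0.61 (SE = 0.94) in HFDmetf vs. HFD and −0.82 (SE = 0.97) in CDmetf vs. CD, none with an FDR under 0.05. Its sign was the same as that of *Apoc3* and *Mttp* in all 4 contrasts but opposite to that of *Apoa4* and *Apob* in CDmetf vs. CD and of *Apob* and *Apoa1* in HFDmetf vs. CDmetf. In HFD vs. CD the distal markers *Fabp6* and *Slc10a2* had a logFC of 0.02 (SE = 0.94) and −1.37 (SE = 0.90). The proximal markers *Lct* and *Fabp1*, a fatty acid binding protein gene, stood at 1.08 (SE = 1.39) and 4.17 (SE = 1.365) there. In HFDmetf vs. CDmetf *Slc10a2* was at −1.93 (SE = 0.91) and *Fabp6* at −0.28 (SE = 0.95). None of these had an FDR under 0.05. With *Gata4* log2 CPM as a covariate, a setting added after seeing the data, the *Apoa4* logFC was 2.65 (SE = 0.70) in HFD vs. CD and 1.84 (SE = 0.66) in CDmetf vs. CD, and 0.28 (SE = 0.64) and −0.53 (SE = 0.69) in the other contrasts. The HFD vs. CD values of *Apoc3*, *Mttp* and *Apoa1* became 0.15 (SE = 0.41), 0.25 (SE = 0.31) and 0.22 (SE = 0.38). In HFDmetf vs. CDmetf the sign changed for *Apoc3*, to −0.27 (SE = 0.44), and for *Mttp*, to −0.33 (SE = 0.31), and *Apoa1* stood at −0.77 (SE = 0.40). In CDmetf vs. CD it changed for *Apoc3*, to 0.16 (SE = 0.45), for *Mttp*, to 0.15 (SE = 0.31), and for *Apoa1*, to 0.46 (SE = 0.39). *Apoe* hardly moved, at 0.50 (SE = 0.22) in HFDmetf vs. HFD. With a score of proximal minus distal markers in place of *Gata4*, the *Apoa4* value was 3.31 (SE = 0.92) in HFD vs. CD. Those of *Apoc3*, *Mttp* and *Apoa1* were 0.64 (SE = 0.61), 0.55 (SE = 0.39) and 0.63 (SE = 0.47) there. *Apoc3* and *Mttp* kept their signs with this score, at 0.65 and 0.10 in HFDmetf vs. CDmetf and −0.49 and −0.17 in CDmetf vs. CD. *Apoa1* changed sign in CDmetf vs. CD with it, to 0.03.

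**Figure D2:**
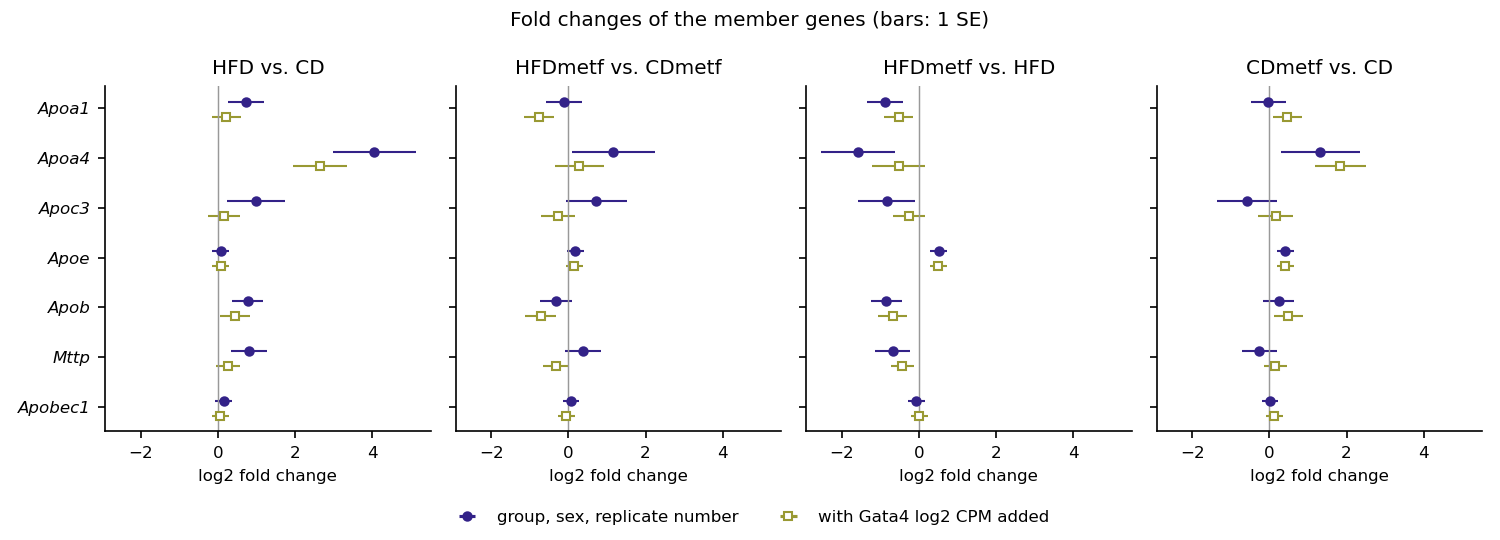
The log2 fold change of each tested gene (x axis) in the 4 contrasts, with bars of 1 SE; filled circles are the fit with group, sex and replicate number, and open squares the fit with Gata4 log2 CPM added. *Apoa4* in HFD vs. CD stands apart at 4.06, and at 2.65 with *Gata4* added, while *Apobec1* lies near 0 in all 4.

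The members were then compared across libraries on a measure that the choice of genes did not use, the deviation of log2 CPM from the group mean in 24 libraries. Of the 21 pairs of tested genes, 15 correlated with an adjusted p under 0.05 (permutation test within groups, 100000 permutations, two-sided, Benjamini-Hochberg adjustment over the pairs). These were the 15 pairs that do not include *Apoe*, with r from 0.592 to 0.929. A pair with *Apoe* was added in 2 other settings, *Apobec1* and *Apoe* (r = −0.459, adjusted permutation p = 0.034) on deviations from group, sex and replicate number, and *Apoe* and *Mttp* (r = −0.520, adjusted permutation p = 0.0147) without the 2 farthest libraries. The pairs of the chromosome 9 cluster had an r of 0.900 (*Apoa4* and *Apoa1*), 0.911 (*Apoa4* and *Apoc3*) and 0.906 (*Apoa1* and *Apoc3*), with a rho of 0.937, 0.903 and 0.899 and an adjusted permutation p of 2.62e-05 for r and 3.5e-05 for rho, where 1e-05 is the smallest unadjusted p that the permutations can give. Genes on different chromosomes reached the same range, with an r of 0.929 (rho = 0.899) for *Apoc3* and *Mttp* and 0.895 (rho = 0.882) for *Apob* and *Mttp*, each with the same adjusted permutation p. Both genes of a pair are read from the same library and the same piece of tissue. The share of other gene pairs reaching such r was not determined, so the count is not read as particular to these genes.

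Leaving out the 2 libraries farthest from the median of the first gene changed the r of these 5 pairs to between 0.902 and 0.918. Within libraries of the same replicate number (n = 8 each), which differ in depth, the r of *Apoa4* and *Apoa1* was 0.877, 0.863 and 0.889, and that of *Apob* and *Mttp* 0.908, 0.816 and 0.926. Not every pair held up in this way. The pairs of *Apobec1* with genes other than *Apoe* had r of only 0.174 (*Mttp*) to 0.351 (*Apoc3*) within number 1. In numbers 2 and 3 these pairs had r from 0.613 to 0.885. Because *Gata4* split the libraries, r was also taken on each side of its gap. Among the 16 libraries above it, the 15 pairs without *Apoe* had r from 0.526 to 0.926 (median 0.848), and 14 kept an adjusted permutation p under 0.05; the exception was *Apoa4* and *Apob* (r = 0.526, adjusted permutation p = 0.0733). Among the 8 below it, 14 of 15 were positive, with a median of 0.535 and a lowest value of −0.0426.

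In the 24 libraries the r of *Apoe* with the 6 other tested genes lay between −0.330 (*Apobec1*, rho = −0.399, adjusted permutation p = 0.134 for r and 0.0797 for rho) and 0.140 (*Apoa4*, rho = 0.0243, adjusted permutation p = 0.574 and 0.916). Below the *Gata4* gap, however, its r with *Apoa4* was 0.936 in 8 libraries, against 0.392 in the 16 above it. The difference between these values was not tested. Of the r of *Apoe* with the 6 genes below the gap, 0.936 was the highest and −0.0635 (*Apobec1*) the lowest. Those 8 libraries are 2 CD, 4 CDmetf and 2 HFDmetf, and in a group of 2 the deviations mirror each other, so this r rests on little.

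Marker scores, the mean z-score of log2 CPM over lists of cell type and position genes that hold none of the 8 genes, were compared in the same way, and 23 of 56 pairs of gene and score had an adjusted permutation p under 0.05 for r. How many other genes follow these scores as closely was not determined, so the count is not read as particular to these genes. *Mttp* followed the score of 10 proximal genes with r = 0.974 (rho = 0.971, adjusted permutation p = 8e-05 for r and 9.33e-05 for rho), at 0.952 in the 16 libraries above the *Gata4* gap and 0.882 in the 8 below it. The r with this score was 0.913 for *Apoc3*, 0.858 for *Apob*, 0.813 for *Apoa1*, 0.754 for *Apoa4* and 0.626 for *Apobec1*, and −0.294 for *Apoe*. The score of villus tip enterocytes, the site of late enterocyte maturation, had an r of 0.893 with *Apoa1* and 0.850 with *Apoa4* (rho = 0.875 and 0.864, adjusted permutation p = 8e-05 and 9.33e-05 for both genes). Within replicate numbers 1, 2 and 3, the r of *Apoa4* was 0.862, 0.435 and 0.918 with this score and 0.887, 0.670 and 0.606 with the proximal score, so neither was the higher in every set.

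**Figure D3:**
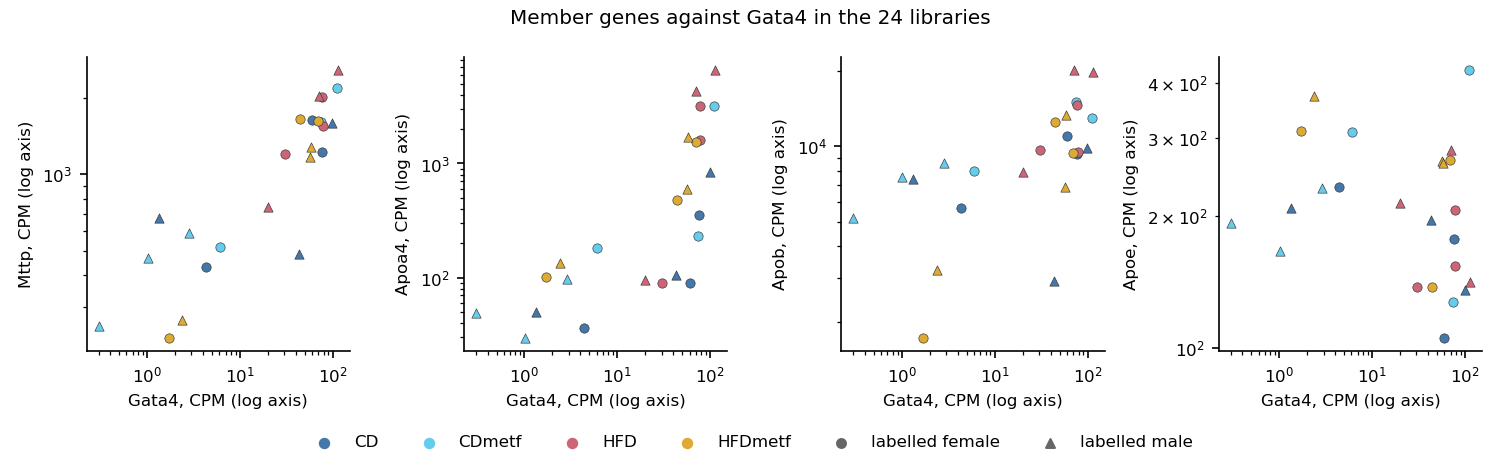
Level of *Mttp*, *Apoa4*, *Apob* and *Apoe* against *Gata4*, both in CPM on log axes, with 1 point per library, coloured by group and shaped by labelled sex. No library lies between 6.06 and 20.1 CPM of *Gata4*; *Mttp* and *Apoa4* reach their high values only above that gap, and the *Apoe* values of both sides overlap.

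The smooth muscle score ran opposite to the 6 genes other than *Apoe*, from r = −0.585 (*Apobec1*) to −0.777 (*Mttp*, rho = −0.780, adjusted permutation p = 8e-05 for r and 0.00014 for rho). For the epithelium score, r was 0.703 for *Apob* and 0.316 for *Apoa4* (adjusted permutation p = 0.00543 and 0.195, rho = 0.573 and 0.345 with 0.0232 and 0.193). The value for *Apob* leaned on few libraries, with r = 0.353 without the 2 libraries farthest from its median. Within replicate numbers 1, 2 and 3 it was 0.142, 0.709 and 0.863. Above the *Gata4* gap it was 0.680 (adjusted permutation p = 0.137). *Apoe* correlated with 1 of the 8 scores, that of 12 macrophage genes, with r = 0.634 (rho = 0.635, adjusted permutation p = 0.0032 for r and 0.00554 for rho). Within libraries of the same replicate number this r was 0.766, 0.684 and 0.297 (n = 8 each), and it was 0.561 (adjusted permutation p = 0.276) in the 16 libraries above the *Gata4* gap, where the adipocyte score had an r of 0.570 (adjusted permutation p = 0.0401) against 0.393 (0.156) in all 24.

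The summed level of the macrophage genes was 243 to 418 CPM in the CD group (median 333), 319 to 491 in the CDmetf group (median 404.5), 247 to 452 in the HFD group (median 376) and 357 to 516 in the HFDmetf group (median 416), with none of the 12 genes at 0 in a whole group. These medians have the same order as those of *Apoe* on each diet, and their part in the *Apoe* values was not tested. Of 10 hepatocyte genes 3 passed the filter, with a summed level of 4.09 to 121 CPM, and *Fgb* was at 0 in all CD libraries.

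**Figure D4:**
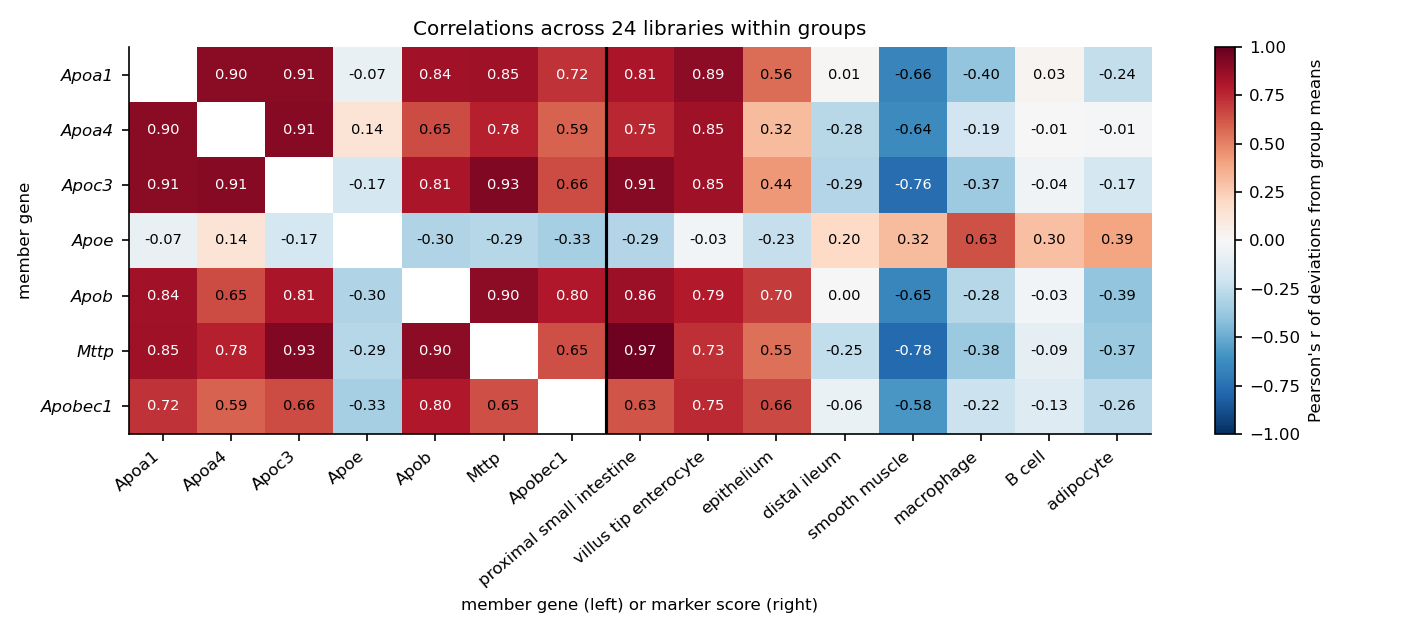
Pearson's r of deviations from group means over 24 libraries, for pairs of genes (left of the line) and for each gene with 8 marker scores (right); the colour runs from −1 (blue) to 1 (red) and each cell prints r. The 6 genes other than *Apoe* form a red block and share their signs for the proximal, villus tip and smooth muscle scores, and the *Apoe* row stands apart with its highest r for macrophages.

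By a rule of highest r over the 24 libraries, the 5 genes nearest to *Apoa4* included *Slc16a3* (0.944), *Ormdl3* (0.921), *Rbp2* (0.919) and *Sec31a* (0.912). *Rbp2* encodes the retinol-binding protein of enterocytes and is one of the proximal markers, and *Sec31a* encodes a coat protein of the vesicles that leave the endoplasmic reticulum. Nearest to *Apob* were *Slc41a2* (0.954), *Gpat3* (0.945), which encodes an enzyme of triglyceride synthesis, *Clca4b* (0.942), *Ces2e* (0.941) and *Cyp3a13* (0.935). Nearest to *Apoe* were *Arhgap39* (0.871), *Rpp25l* (0.861), *Pitx1* (0.857), *Cd4* (0.857) and *Gm26917* (0.841). These r were picked as the highest of all genes tested and are a description.

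Sex was not used to choose the genes and was tested. Between 12 libraries labelled female and 12 labelled male, none of the 7 had an FDR under 0.05 (1 of 14076 genes, 0.0071%, was called), and none had an unadjusted p under 0.05 (7.27% of all genes). DESeq2 also called 0 of the 7 (0.135% of all genes). The largest difference was that of *Mttp*, with a female minus male logFC of 0.42 (SE = 0.33, quasi-likelihood FDR = 0.756), and 9 of 12 female libraries lay above the male median. *Apoc3* followed at 0.41 (SE = 0.55, quasi-likelihood FDR = 0.869), and the other 5 lay between −0.16 (*Apobec1*, SE = 0.15) and 0.10 (*Apob*, SE = 0.29). Leaving out HFD M2 and HFD F2, whose sex goes against the label, gave −0.11 (SE = 0.36) for *Apoa1* in place of 0.06 (SE = 0.33).

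The contrasts were also compared between the sexes in a fit of 8 groups of 3. Again 0 of the 7 genes and 0 of 14402 genes (0%) had an FDR under 0.05, and at an unadjusted p under 0.05 there were 3 of 7 in HFDmetf vs. CDmetf (5.28% of all genes), 2 of 7 in CDmetf vs. CD (5.21%) and 0 of 7 in the other 2 (2.11% in HFD vs. CD and 3.33% in HFDmetf vs. HFD). DESeq2 called 0 of the 7 here as well (0.0139% of all genes in HFD vs. CD, 0.306% in HFDmetf vs. CDmetf, 0.0278% in HFDmetf vs. HFD and 0.0486% in CDmetf vs. CD). For *Apoa4* the female minus male difference was 4.21 (SE = 1.79, quasi-likelihood FDR = 0.918) in CDmetf vs. CD and −4.73 (SE = 1.76, quasi-likelihood FDR = 0.923) in HFDmetf vs. CDmetf. For *Apoc3* it was 3.31 (SE = 1.43, quasi-likelihood FDR = 0.926) and −3.55 (SE = 1.43, quasi-likelihood FDR = 0.936), and for *Apoe* −0.86 (SE = 0.40, quasi-likelihood FDR = 0.938) in the second. Both contrasts share the CDmetf libraries, of which the 3 labelled male (*Apoa4* at 29.8 to 96.8 CPM) and 1 labelled female lie below the *Gata4* gap. With *Gata4* as a covariate, the *Apoa4* difference was 0.85 (SE = 1.54) in CDmetf vs. CD and −0.19 (SE = 1.65) in HFDmetf vs. CDmetf, and that of *Apoc3* was −0.17 (SE = 1.07) and 0.74 (SE = 1.10). With the proximal minus distal score, the *Apoa4* values were 2.56 (SE = 1.69) and −4.23 (SE = 1.61). For *Apoe* the HFDmetf vs. CDmetf value was −1.26 (SE = 0.47) with *Gata4* and −0.98 (SE = 0.39) with the score.

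Other genes of the pathway were taken from lists set by known function, with earlier results of these data known. Of the 34 genes of chylomicron assembly and export, all tested, 0 had an FDR under 0.05 in any contrast. In HFD vs. CD, 30 had a logFC above 0, with a median of 0.28 beside −0.0047 for all genes, and at an unadjusted p under 0.05 there were 7 higher and 1 lower (2.59% and 2.04% of all genes). The 7, named after their values were seen, include *Dgat2* (triglyceride synthesis, logFC = 0.65, SE = 0.26), *Plin2* (lipid droplet coat, 0.57, SE = 0.21), *P4hb* (the partner subunit of MTP, 0.61, SE = 0.27) and *Sec24d* (vesicle coat, 0.85, SE = 0.34).

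In HFDmetf vs. HFD, 29 of the 34 had a logFC below 0, with a median of −0.39 beside 0.026 for all genes, and 4 were lower and 0 higher at an unadjusted p under 0.05 (2.82% and 3.79% of all genes). *Mia2*, an exit-site receptor for large cargo, was at 186 ± 57.7 CPM (SD, n = 6) in the HFDmetf group against 269 ± 105 in the HFD group (logFC = −0.53, SE = 0.19, quasi-likelihood FDR = 0.640). The other 3 were *Plin3*, *Stx5a* and *Tmem41b*, at −0.55 to −0.26. HFD vs. CD and HFDmetf vs. HFD share the HFD libraries, all 6 of which lie above the *Gata4* gap. Marker scores also differed between the HFD and HFDmetf groups, with means of 0.136 and −0.424 for epithelium, −0.565 and 0.24 for smooth muscle and −0.134 and 0.494 for macrophages, and their part in the list's values was not tested. HFDmetf F2 had an epithelium score of −2.1 and the share of 36.6% on 10 genes. In HFDmetf vs. CDmetf and CDmetf vs. CD the medians were 0.011 and 0.031. In each, 1 gene was higher and 0 lower at an unadjusted p under 0.05, beside 3.83% and 4.04% of all genes in HFDmetf vs. CDmetf and 2.74% and 2.41% in CDmetf vs. CD.

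**Figure D5:**
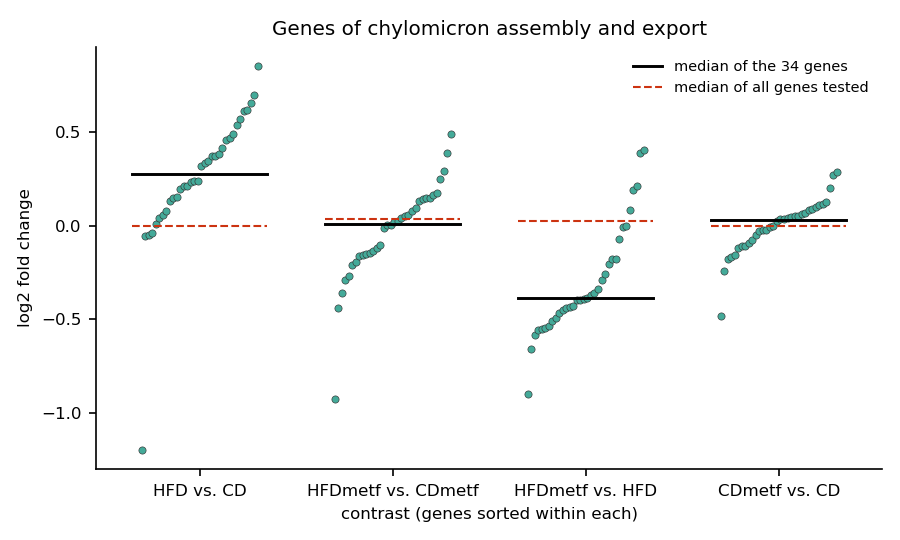
Log2 fold change of the 34 genes of chylomicron assembly and export in the 4 contrasts, sorted within each, with the median of the 34 (solid line) and of all genes tested (dashed line). Most points lie above 0 in HFD vs. CD (median 0.28) and below 0 in HFDmetf vs. HFD (median −0.39); none had an FDR under 0.05.

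Of 16 other apolipoproteins and lipid transfer proteins, 5 passed the filter and 0 were called. *Clu*, which encodes clusterin (apolipoprotein J), was at 28.1 ± 12.2 CPM (SD, n = 6) in the CD group, 82.9 ± 65.5 in the CDmetf group, 79.9 ± 68.5 in the HFD group and 31.7 ± 8.68 in the HFDmetf group. Its logFC was 1.45 (SE = 0.47, quasi-likelihood FDR = 1.00) in HFD vs. CD, with 4 of 6 HFD libraries above the CD median, 1.55 (SE = 0.47, quasi-likelihood FDR = 0.940) in CDmetf vs. CD, with 6 of 6 above, and −1.34 (SE = 0.47, quasi-likelihood FDR = 0.599) in HFDmetf vs. CDmetf, with 6 of 6 below the CDmetf median. The B cell score had means of −0.384 (SD = 0.644) in the CD group and 0.429 (SD = 1.26) in the CDmetf group. In the HFD and HFDmetf groups they were 0.327 (SD = 1.15) and −0.371 (SD = 0.323). The part of tissue composition in the *Clu* values was not tested. *Pltp*, the phospholipid transfer protein gene, was at 16.2 ± 10.9 CPM (SD, n = 6) in the HFDmetf group and 7.66 ± 3.02 in the HFD group (logFC = 0.93, SE = 0.34, quasi-likelihood FDR = 0.640), with 5 of 6 above the HFD median.

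None of the 6 partners of apoB mRNA editing was called, with a median of −0.0098 in HFD vs. CD, −0.119 in HFDmetf vs. CDmetf, −0.126 in HFDmetf vs. HFD and 0.0971 in CDmetf vs. CD. The 1 gene with an unadjusted p under 0.05, *A1cf*, the complementation factor of APOBEC1, had a logFC of −0.41 (SE = 0.17) in HFDmetf vs. CDmetf and again −0.41 (SE = 0.17) in HFDmetf vs. HFD, contrasts that share the HFDmetf libraries. Of 24 regulators of apolipoprotein transcription, 23 were tested and 0 called, and their medians lay between −0.131 and −0.00445. *Srebf1*, which encodes the lipogenic factor SREBP-1, was at 159 ± 131 CPM (SD, n = 6) in the HFD group and 76.5 ± 16.7 in the CD group (logFC = 0.91, SE = 0.27, quasi-likelihood FDR = 1.00), with 5 of 6 HFD libraries above the CD median.

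Of 16 lipoprotein receptors and lipolysis genes, 15 were tested and 0 called, and their medians lay between 0.028 and 0.13. The VLDL receptor gene *Vldlr* was at 18.9 ± 4.65 CPM (SD, n = 6) in the HFDmetf group and 12.5 ± 2.61 in the CDmetf group (logFC = 0.60, SE = 0.18, quasi-likelihood FDR = 0.582), with 5 of 6 HFDmetf libraries above every CDmetf library. The cholesterol efflux transporter gene *Abcg1* was at 17.3 ± 9.24 CPM (SD, n = 6) in the CDmetf group and 9.93 ± 2.38 in the CD group (logFC = 0.75, SE = 0.28, quasi-likelihood FDR = 0.940), with 6 of 6 CDmetf libraries above the CD median.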

How the data were processed

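RNA-seq of 24 distal small intestine samples was used, 6 per group. The authors depleted ribosomal RNA, trimmed reads with Trimmomatic 0.39, mapped them to GRCm38 and obtained the deposited counts per gene with STAR 2.5.3a; the annotation and the strand setting are not given in the sources used here. All 55536 identifiers matched GENCODE M21. Counts were analysed with edgeR 4.0.16 (R 4.3.3): genes were filtered with filterByExpr (14076 kept), scaled by TMM and tested with the quasi-likelihood F-test, in a model of group, labelled sex and replicate number that left 17 residual degrees of freedom. FDR is the Benjamini-Hochberg adjusted p (threshold 0.05). Sex differences of contrasts came from a fit of 8 groups. The procedure was tested on simulated data. Correlations used log2 CPM (prior count 1) with 100000 permutations within groups; 21 pairs were tested, since *Apoc2* failed the filter.

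The genes and lists were chosen with earlier results of these data known. By rule, the text names all 8 genes, called pathway genes, the 2 pathway genes with the smallest p in each contrast, and the 5 genes nearest to *Apoa4*, *Apob* and *Apoe*. Outside this rule, *Dgat2*, *Plin2*, *P4hb*, *Sec24d*, *Plin3*, *Stx5a*, *Tmem41b* and *A1cf* were named for an unadjusted p under 0.05 in a contrast. Some genes that meet this rule are not reported here. Marker lists were proximal and distal small intestine, epithelium, villus tip, crypt, B cell, plasma cell, macrophage, smooth muscle, glia, adipocyte, hepatocyte, pancreas and colon.

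Alternatives were DESeq2 1.42.0 (its size factors and Wald test), limma-voom (limma 3.58.1), other scaling, filters of none or 10 counts in every sample, fits of the compared samples alone or with no replicate block, and omission of doubtful or single libraries. The *Gata4* and position covariates and the restriction to libraries above the *Gata4* gap were added after seeing the data. The study ran its cages in time-shifted blocks, but nothing in the labels states that a replicate number marks a block, litter or batch, and p-values measure the spread between animals.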

Additional observations from a re-analysis of the deposited data

Results flagged for a closer look

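*Apoe* in HFDmetf F3 lay far below the rest of its group, with 138 CPM where the remaining 5 had 264 to 374 CPM (gap 0.652 of the range, critical value 0.625). This was 1 of 28 groups examined, and chance gives about 1 in 20.

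When libraries of the same number were set side by side, *Apoa4* in CDmetf vs. CD was higher in all 3 females and lower in all 3 males. The numbers are not shown to pair the animals, so this split depends on how libraries are matched. The male libraries of number 2 were nearly equal (48.7 CPM in CDmetf M2 and 50 CPM in CD M2). CD F1 (351 CPM) lay above CDmetf F2 (184 CPM) and CDmetf F3 (230 CPM). The female minus male difference was 4.21 (SE = 1.79), with a quasi-likelihood FDR of 0.918, and all 3 male CDmetf libraries lie below the *Gata4* gap. With *Gata4* log2 CPM as a covariate the difference was 0.85 (SE = 1.54), and with the proximal minus distal score 2.56 (SE = 1.69).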

How the results depend on the processing

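The log2 fold changes of the 7 tested genes in the 4 contrasts and the interaction, of which none was called, changed sign in 9 of 308 values under planned settings, 10 of 70 with a position covariate and 35 of 840 with single libraries left out. DESeq2 called 13 genes in HFD vs. CD, *Apoa4* being the 1 member, 3 in HFDmetf vs. CDmetf, 4 in CDmetf vs. CD, 4 in the interaction and 19 by sex, and for female minus male 2 in HFD vs. CD, 44 in HFDmetf vs. CDmetf, 4 in HFDmetf vs. HFD and 7 in CDmetf vs. CD. Without a filter, 15 genes were called by sex and 1, 42, 3 and 8 in those sex differences. Without CD M3, 2 genes were called by sex and 1 in the CDmetf vs. CD sex difference. Without HFD M2 and HFD F2, these were 8 by sex and 1 in the HFDmetf vs. CDmetf sex difference. The *Gata4* covariate gave 5 by sex, and the position score 1 in the HFDmetf vs. CDmetf sex difference. Leaving out single libraries gave 0 to 1 genes in HFD vs. CD, 1 to 8 by sex, and for sex differences 0 to 1 in HFD vs. CD, 0 to 10 in HFDmetf vs. CDmetf (10 without HFDmetf M1) and 0 to 1 in CDmetf vs. CD. Correlations with marker scores called 14 of 56 above the *Gata4* gap against 23 of 56 in all libraries. The causes were not tested.

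The female minus male logFC changed sign for *Apoa4* with limma-voom (0.52) and for *Apoa1* without HFD M2 and HFD F2 (−0.11). With the *Gata4* covariate it was −0.40 for *Apoa1*, −0.23 for *Apoc3*, −0.17 for *Apob* and −0.033 for *Mttp*, and without CD M3 it was −0.0086 for *Apob*. Leaving out single libraries, it ranged from −0.47 to 0.40 for *Apoa4*, −0.10 to 0.24 for *Apoa1* and −0.0086 to 0.22 for *Apob*.

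Without the replicate block the *Apoa4* logFC was 3.42 in HFD vs. CD, 0.32 in HFDmetf vs. CDmetf, −1.81 in HFDmetf vs. HFD, 1.29 in CDmetf vs. CD and 0.10 for female vs. male, where its sign changed. Deviations of libraries of the same number had a mean r of 0.13 (−0.458 to 0.757, 72 pairs), against −0.0642 between different numbers (144 pairs), and some same-number pairs were negative, so the numbers are not shown to pair the animals. Number 2 libraries were all shallow, at 1829690 to 3466430 reads. Depth limits *Apoc2* most, with 59 reads in all.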
